A study of Mus musculus with 4 samples.

Results

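Interferon-stimulated genes were followed in blood stem and progenitor cells of 4 mouse genotypes that carried an activated Ikk2, an activated Jak2, both or neither. The 40 genes, called members here, were taken by symbol from a given list, among 32285 genes in every matrix, and all 40 were found in all 4 libraries. Of these, 33 reached 10 CPM (UMIs of a gene per 1000000 UMIs of the library) in at least 1 library, as did 8536 of all genes. Usp18, at 10.3 CPM in its highest library, was just inside that limit, and Cmpk2 at 9.73 CPM was just outside it. The other 6 below it were Ifit2, Ifit3, Ifit3b, Oas1a, Oas2 and Oasl1.

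Marrow was enriched for Kit with beads and sorted for Lin-Sca-1+Kit+ (LSK) cells, a mixture of blood stem cells and their earliest descendants. Each of the 4 libraries pooled 5 mice aged 8 to 12 weeks, so there was 1 library per genotype and differences between animals could not be measured. The control was Vav1-iCre/+, Ikk2CA was Vav1-iCre/+ with Ikk2-CA flox/+ (the R26StopFLikk2ca allele), Jak2V617F was Vav1-iCre/+ with Jak2 V617F flox/+, and the double mutant carried all 3 alleles. The recombinase was therefore present in all groups, controls included, and per the series' design text an NF-κB-responsive EGFP reporter was crossed into the colony. Vav1-iCre acts across blood-forming cells, so every cell type of the gate, and blood cells outside it, could carry the alleles. The Ikk2-CA product is an always-on kinase upstream of NF-κB, and V617F is the Jak2 mutation common in myeloproliferative neoplasms.

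Interferons are secreted proteins that cells release when they sense foreign nucleic acid. Type I interferons bind the Ifnar1 and Ifnar2 receptor, whose kinases Jak1 and Tyk2 act on STAT proteins. Stat2 and Irf9 belong to the resulting complex ISGF3, which binds the interferon-stimulated response element (ISRE) in front of its target genes. Type II interferon (Ifng) signals through Ifngr1, Ifngr2, Jak1 and Jak2 and acts through the gamma-activated site (GAS). Many targets are expressed at a low level without infection, and stem cells are known for a higher resting level than their progeny.

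The sequences below show the ISRE core in front of 7 members on both sides of the results that follow. Windows were taken from RefSeq promoters (250 bases before to 50 after a gene's start, build GRCm38.p6) and are written 5′ to 3′ on the strand of the gene. Capitals mark each match to GAAANNGAAA or its reverse complement. Ifit1 (chr19:34640765-34640833, plus strand), Ifit3 (chr19:34583353-34583436, plus strand), Rsad2 (chr12:26456543-26456592, minus strand) and Oas3 (chr5:120777705-120777754, minus strand) were at least 1.5-fold lower in Ikk2CA than in control. Isg15 (chr4:156200855-156200916, minus strand), Bst2 (chr8:71537567-71537622, minus strand) and Ifi203 (chr1:173942498-173942547, minus strand) were not.
Ifit1: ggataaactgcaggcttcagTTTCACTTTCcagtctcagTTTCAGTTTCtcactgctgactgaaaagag
Ifit3: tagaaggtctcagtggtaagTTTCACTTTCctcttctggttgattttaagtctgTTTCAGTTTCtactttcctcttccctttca
Rsad2: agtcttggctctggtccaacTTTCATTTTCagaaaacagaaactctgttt
Oas3: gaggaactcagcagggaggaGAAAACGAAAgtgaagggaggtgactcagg
Isg15: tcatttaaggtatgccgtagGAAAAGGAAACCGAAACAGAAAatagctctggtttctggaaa
Bst2: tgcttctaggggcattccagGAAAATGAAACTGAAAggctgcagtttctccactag
Ifi203: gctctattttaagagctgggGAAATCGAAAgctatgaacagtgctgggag

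Of the 32 members with a RefSeq promoter, 16 (50%) held the core on either strand, against 3.44% of 32851 promoters and 3.99% of 27025 genes. Overlapping matches were counted, so that Isg15 held 3 of them in 1 run. The GAS letters TTCNNNGAA were in 5 of the 32 members, against 8.30% of all promoters and 9.55% of genes. The NF-κB site was in 2 (Bst2 and Oasl1), against 4.51% of promoters and 5.14% of genes. The 84-base windows of Ifit3 and Ifit3b were identical at all 84 positions. These are near-identical neighbours on chromosome 19, so the split of reads between them is uncertain, as it may be for Trim30a, Oas1a, Slfn2 and Ifi203, which also have close copies. The 13 members with the core that reached 10 CPM had a median log2 ratio of Ikk2CA to control of -0.78, and the 13 without it had -0.59. Lower levels were thus seen with and without the letters, and a match is a description of the sequence, not of a bound site.

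Cells kept numbered 8055 in control, 9865 in Ikk2CA, 14156 in Jak2V617F and 5268 in the double mutant. Median depth was 10606, 17726, 11106.5 and 24915 unique molecular identifiers (UMIs) per cell, so both libraries with Ikk2-CA were deeper. The sort markers Kit and Ly6a (Sca-1) were present in every library, at 87.6 to 175 CPM and 106 to 233 CPM. Nfkbia, the NF-κB inhibitor that NF-κB itself induces, was at 69.9 CPM in control, 325 in Ikk2CA, 87.4 in Jak2V617F and 252 in the double mutant, highest in the libraries labelled with Ikk2-CA. Between 12 and 60 of the kept barcodes were shared by any pair of libraries, at most 0.608% of the smaller. The female-specific RNA Xist was not detected in 41.5%, 75.7%, 99.6% and 70.9% of cells of at least 5000 UMIs. Plasma cell markers also differed, summing to 2179, 13648, 319 and 399 CPM in the same order.

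Most members were lower in both libraries with Ikk2-CA and close to control in Jak2V617F. Over the 33 members the median log2 ratio to control was -0.61 in Ikk2CA, -0.09 in Jak2V617F and -0.69 in the double mutant, where the median over all 8536 genes was -0.23, -0.01 and -0.24. In Ikk2CA 28 of 33 members were below control, and in the double mutant 29 of 33. With 1 library per genotype no test was possible. Intervals below are 95%, exact and for counting error only, and a member is counted as lower or higher past a fold of 1.5. The 3 ratios to control share the control library, and their values are set side by side for that reason only.

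In Ikk2CA, 18 of 33 members were at least 1.5-fold lower than control, against 16.7% of all genes, and 2 (Slfn2 and Ifi27l2a) were at least 1.5-fold higher, against 3.96%. In Jak2V617F none was lower, against 1.75% of genes, and 1 (Slfn2) was higher, against 1.14%. In the double mutant 23 were lower, against 16% of genes, and 1 (Slfn2) was higher, against 2.32%. The double mutant set against Ikk2CA gave 1 lower member (Ifi27l2a; 3.95% of genes) and 1 higher (Ifit1; 2% of genes), with a member median of -0.10. Set against Jak2V617F it gave 18 lower, against 15.2% of genes, and none higher, against 1.76%, with a median of -0.66. Between 71.2% and 73.6% of all genes were below 0 in the 3 ratios that set a library with Ikk2-CA against one without. Relative to the median gene, the members at least 1.5-fold lower numbered 9 in Ikk2CA (6.33% of genes), 11 in the double mutant (5.33%) and 7 in the double mutant against Jak2V617F (4.04%). Stem cell markers were also lower with Ikk2-CA, summing to 349 CPM in control, 104 in Ikk2CA, 347 in Jak2V617F and 169.7 in the double mutant, and cells of the stem cell gate described below were 11.4%, 3.72%, 12.2% and 6.29%. Their part in the member ratios was not tested. With gates weighted alike in every library, the member median to control was -0.41 in Ikk2CA (all genes -0.225) and -0.64 in the double mutant (all genes -0.235). Values within gates are given below. Library sums cannot tell fewer cells of a type from less RNA per cell. In 26 of the 33 members both libraries without Ikk2-CA were above both libraries with it, which held for 56.5% of all genes.

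**Figure D1:**
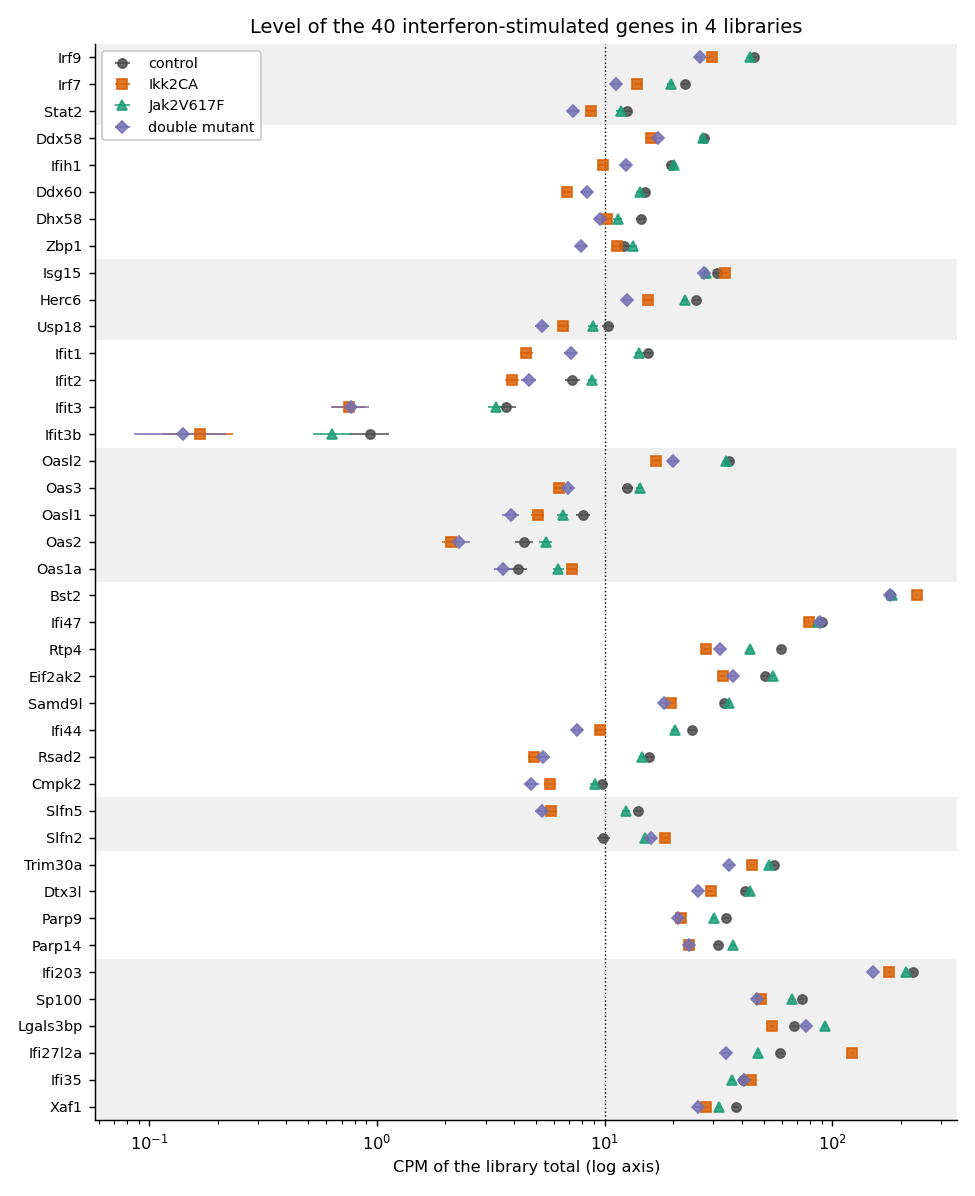
CPM of each of the 40 members (log axis) in the 4 libraries, grouped by role with alternating shading, with exact Poisson intervals for counting error; the dotted line is 10 CPM. Control and Jak2V617F points lie to the right of Ikk2CA and double-mutant points for most members, while Slfn2, Oas1a, Ifi27l2a, Bst2, Isg15 and Ifi35 have their highest point in Ikk2CA.

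The depth of the cell moved with these ratios. In every library the summed level of the 40 members was lower in deeper cells from 5000 UMIs upwards: in control it was 2015 CPM in cells of 5000 to 10000 UMIs, 1499 CPM at 10000 to 20000, 1151 CPM at 20000 to 40000 and 752 CPM at 40000 or more. Among cells of 10000 to 20000 UMIs in each library, a range chosen after the values had been seen, the sums were 1499 CPM in control, 1540 in Ikk2CA, 1405 in Jak2V617F and 1476 in the double mutant. Abundant members weigh most in these sums, so they do not show the level of the typical member. Bst2 was at 181, 256, 188 and 174 CPM there in the same order. Ifi27l2a was at 59.9, 158, 51.3 and 44.8 CPM, and both were highest in Ikk2CA. In this range the member median was -0.22 in Ikk2CA (all genes -0.20) and -0.17 in Jak2V617F (all genes -0.02). In the double mutant it was -0.04 (all genes -0.17). Members at least 1.5-fold lower numbered 4, 1 and 0, against 9.57%, 1.99% and 9.82% of genes in the same order. The 4 in Ikk2CA, a share near that of all genes, were Ifit1, Rsad2, Ifi44 and Ddx60. Slfn2, Isg15 and Ifi27l2a were at least 1.5-fold higher there, against 4.45% of genes.

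Ratios in the other ranges differed from these. For Ikk2CA the median was -0.11 at 5000 to 10000 UMIs (all genes -0.10), -0.47 at 20000 to 40000 (-0.25) and -0.17 above (-0.17). For the double mutant it was -0.38 (all genes -0.04), -0.32 (-0.20) and 0.02 (-0.10). At 5000 to 10000 UMIs 7 members were at least 1.5-fold lower in Ikk2CA, against 9.95% of genes. In the double mutant 10 were, against 7.85%. At 20000 to 40000 UMIs 13 members were at least 1.5-fold lower in Ikk2CA, against 14.9% of genes, and 4 in the double mutant, against 11.4%, a share near that of all genes. The double mutant had only 177 cells at 5000 to 10000 UMIs, and control only 97 at 40000 or more. Depth per cell, RNA content and capture cannot be told apart here, and matched depth below means cells of 10000 to 20000 UMIs. Depth is only roughly matched there, with medians of 13337 UMIs in control, 14347 in Ikk2CA, 14105 in Jak2V617F and 15529 in the double mutant. At 20000 to 40000 UMIs the double mutant was at 0.786 of control for Ifit1, 0.876 for Oasl2, 0.854 for Ddx58 and 0.805 for Ddx60. Parp14 was at 1.01. All of these were highest in the double mutant at matched depth.

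**Figure D2:**
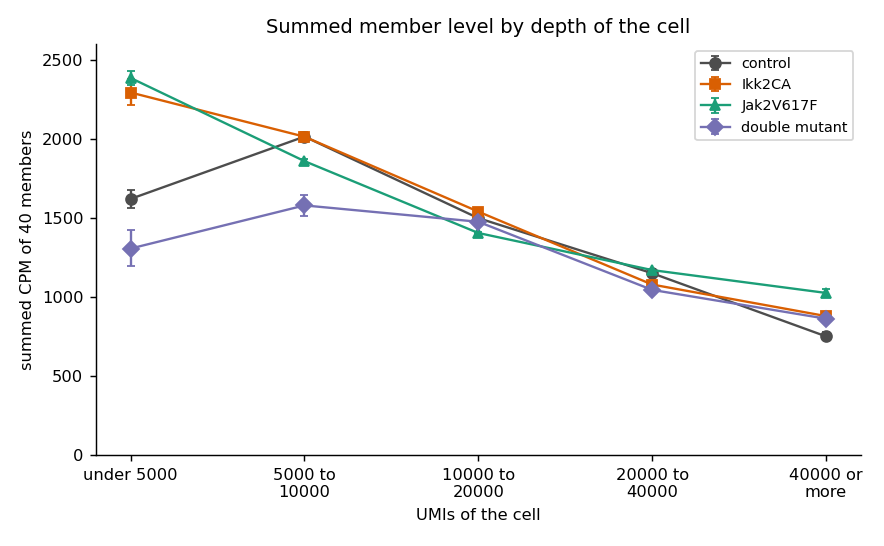
Summed CPM of the 40 members (y) in cells grouped by their own UMIs (x) for each library, with exact Poisson intervals. In cells of 10000 to 20000 UMIs the 4 libraries lie between 1405 and 1540 CPM. Abundant members such as Bst2 weigh most in the sum.

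The 3 transcription factors of the response were lower in both Ikk2-CA libraries. Irf9, the DNA-binding part of ISGF3 (chr14:55603571-55610030), was at 45.3 CPM in control, 29.6 in Ikk2CA, 43.7 in Jak2V617F and 26.1 in the double mutant. Irf7, which amplifies type I interferon output (chr7:141262706-141266481), was at 22.6, 13.9, 19.5 and 11.3 CPM in the same order. Stat2 was at 12.6, 8.73, 11.8 and 7.27 CPM. Over all cells each had its 2 higher values in the libraries without Ikk2-CA. The Ikk2CA level of Irf7 was 0.615 of control (interval 0.582 to 0.650) and that of the double mutant 0.497 (0.466 to 0.530), and at matched depth these were 0.955 and 0.935. Jak2V617F was at 0.824 for Irf7 there, the lowest library. Irf9 at matched depth was at 0.795 and 0.872 of control, with Jak2V617F at 0.906. Stat2 at matched depth was at 0.846 of control in Ikk2CA, 0.863 in Jak2V617F and 0.857 in the double mutant.

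Sensors of foreign nucleic acid were mostly lower as well. Ifih1, the gene of the RNA helicase MDA5 (chr2:62595798-62646255), was at 19.5 CPM in control, 9.86 in Ikk2CA, 20.1 in Jak2V617F and 12.4 in the double mutant. Ddx60, an RNA helicase linked to RIG-I signalling, was at 15.03, 6.81, 14.3 and 8.39 CPM, and Ddx58, the gene of RIG-I itself, at 27.4, 16.0, 27.1 and 17.2 CPM. Over all cells both Ikk2-CA libraries were below the other two in these 3 helicases. At matched depth this held for Ifih1 (19.0, 12.8, 18.9 and 16.5 CPM) but not for Ddx58 (27.7, 24.5, 25.3 and 31.6 CPM) or Ddx60 (14.96, 9.77, 13.4 and 16.0 CPM), where the double mutant was highest. Dhx58 (LGP2, a regulator of the other helicases) was at 14.5, 10.3, 11.4 and 9.56 CPM, and Zbp1, a sensor of Z-form nucleic acid, at 12.2, 11.3, 13.3 and 7.86 CPM. Zbp1 was low in the double mutant, at 0.646 of control (0.596 to 0.701), and in Ikk2CA was at 0.929 (0.867 to 0.997). The direction turned at matched depth, with the double mutant at 1.23 of control.

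The ISG15 system did not move as one. Isg15, the ubiquitin-like modifier (chr4:156199424-156200818), was at 31.1 CPM in control, 33.9 in Ikk2CA, 27.9 in Jak2V617F and 27.2 in the double mutant, between 0.876 and 1.09 of control. Usp18, the protease that removes Isg15 and restrains the receptor, was at 10.3, 6.60, 8.91 and 5.31 CPM, and Herc6, the mouse ligase that attaches Isg15, at 25.3, 15.5, 22.6 and 12.6 CPM. Over all cells both enzymes were lower in each Ikk2-CA library, by at least 1.5-fold, while Isg15 itself was not. Usp18 at matched depth was at 0.825 of control in Ikk2CA and 0.716 in the double mutant, and Herc6 at 0.752 and 0.674. Neither enzyme was 1.5-fold lower there, and in Jak2V617F they were at 0.780 and 0.868. Isg15 at matched depth was higher in both Ikk2-CA libraries, at 48.6 CPM in Ikk2CA and 43.0 in the double mutant. Control was at 30.2 and Jak2V617F at 27.0.

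The lowest ratios were among the IFIT and other antiviral effector genes. Ifit1, which binds foreign capped RNA (chr19:34640871-34650009), was at 15.6 CPM in control, 4.54 in Ikk2CA, 14.2 in Jak2V617F and 7.10 in the double mutant. Its Ikk2CA level was 0.291 of control (0.268 to 0.316), and the double mutant was at 1.56 times Ikk2CA (1.43 to 1.71). The 3 other IFIT genes were below 10 CPM. Ifit3 was at 3.68, 0.753, 3.35 and 0.766 CPM, Ifit2 at 7.23, 3.92, 8.85 and 4.65 CPM, and Ifit3b below 1 CPM in all libraries. For each of the 4 genes both Ikk2-CA libraries were below both others over all cells. At matched depth the double mutant was at 0.555 of control for Ifit3 and 0.634 for Ifit2. At matched depth Ifit1 was at 13.6, 8.23, 10.4 and 18.3 CPM, so that the double mutant, low over all cells, held the highest value there.

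Rsad2, the gene of viperin (chr12:26442746-26456452), was at 15.7 CPM in control, 4.92 in Ikk2CA, 14.7 in Jak2V617F and 5.35 in the double mutant. Ifi44, an interferon-induced cytosolic protein (chr3:151730922-151749960) was at 24.2, 9.54, 20.3 and 7.55 CPM. Rtp4, of the receptor transporter family, was at 59.4, 28.0, 43.8 and 32.1 CPM. At matched depth the double mutant was at 0.755 of control for Rsad2, 0.860 for Ifi44 and 0.976 for Rtp4, and Ikk2CA at 0.593, 0.658 and 0.717. Over all cells the Ikk2-CA libraries were the 2 lowest for all 3 genes, but at matched depth Jak2V617F was below the double mutant for Ifi44 and Rtp4. Over all cells Rtp4 was also below control in Jak2V617F, at 0.736 of it (0.712 to 0.761). Samd9l, a restriction factor of poxviruses and a regulator of myeloid growth, was at 33.6, 19.5, 35.1 and 18.2 CPM, and Eif2ak2, the gene of the RNA-activated kinase PKR, at 50.7, 33.1, 54.7 and 36.7 CPM. Cmpk2, the neighbour of Rsad2 on chromosome 12, stayed below 10 CPM in all libraries, with 5.76 in Ikk2CA and 4.77 in the double mutant against 9.73 in control. At matched depth the double mutant was at 0.979 of control for Samd9l, 0.832 for Eif2ak2 and 0.822 for Cmpk2.

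Bst2 and Ifi47 had another pattern. Bst2, the gene of tetherin and a marker of plasmacytoid dendritic cells (chr8:71534255-71537456), was among the most abundant members, at 179 CPM in control, 237 in Ikk2CA, 184 in Jak2V617F and 180.0 in the double mutant. Ikk2CA was the high library, at 1.32 of control (1.301 to 1.347). Ifi47, an immunity-related GTPase, was at 90.5, 78.9, 86.6 and 88.3 CPM, between 0.872 and 0.976 of control.

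In the OAS family, whose members make the second messenger that activates RNase L or lack that activity, 4 of 5 genes were lower with Ikk2-CA over all cells. Oasl2 (chr5:114896936-114912234) was at 35.4 CPM in control, 16.9 in Ikk2CA, 34.0 in Jak2V617F and 19.998 in the double mutant, and Oas3 at 12.6, 6.30, 14.2 and 6.88 CPM. Oasl1 and Oas2, both below 10 CPM, had their 2 lowest values in the Ikk2-CA libraries too. In cells of matched depth the double mutant was the highest library for Oasl2 (33.3, 25.4, 30.5 and 39.98 CPM) and above control for Oas2 (4.21, 3.83, 5.18 and 4.85 CPM), and at 0.897 of control for Oas3 and 0.761 for Oasl1. Oas1a had another pattern over all cells, at 4.17 CPM in control, 7.19 in Ikk2CA, 6.27 in Jak2V617F and 3.58 in the double mutant. Each single mutant was above control, at 1.72 (1.55 to 1.92) and 1.503 (1.34 to 1.68), and the double mutant was at 0.858 of it (0.753 to 0.978).

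The Schlafen genes, a family linked to growth control in immune cells, split. Slfn5 (chr11:82951349-82964840) was at 14.1 CPM in control, 5.82 in Ikk2CA, 12.4 in Jak2V617F and 5.32 in the double mutant. Slfn2, known in mouse for keeping immune cells quiescent (chr11:83065112-83070678), was at 9.89, 18.4, 15.1 and 16.1 CPM. All 3 mutants were above control for Slfn2, at 1.86 (1.74 to 2.001), 1.53 (1.42 to 1.65) and 1.63 (1.51 to 1.75), and it was the only member at least 1.5-fold higher in all 3. At matched depth its ratios were 1.98, 1.57 and 2.27, and those of Slfn5 were 0.974, 0.633 and 1.36.

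Among the PARP and E3 ligase genes, Parp9 was at 34.2 CPM in control, 21.6 in Ikk2CA, 30.1 in Jak2V617F and 21.1 in the double mutant. Its partner Dtx3l was at 41.5, 29.2, 43.3 and 25.7 CPM, and Parp14 at 31.5, 23.5, 36.7 and 23.4 CPM. Parp9 and Dtx3l overlap at their starts on opposite strands of chromosome 16, and whether counting used strand is not given in the sources used here. Trim30a, a brake on Toll-like receptor signalling, was at 55.7, 44.6, 53.0 and 35.3 CPM. Over all cells the libraries with Ikk2-CA were the 2 lowest in all 4, at 0.617 to 0.744 of control in the double mutant. At matched depth the double mutant was at 0.842 of control for Parp9, 0.958 for Dtx3l, 0.991 for Trim30a and 1.17 for Parp14, for which it was the highest library.

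Of the nuclear and other members, Ifi203, an interferon-inducible protein of the nucleus (chr1:173920407-173942672), was at 226 CPM in control, 178 in Ikk2CA, 212 in Jak2V617F and 151 in the double mutant. At matched depth Ifi203 was at 233, 224, 205 and 234 CPM. Sp100, a nuclear body protein, was at 73.3, 48.8, 66.5 and 46.5 CPM. Lgals3bp, a secreted glycoprotein that binds galectin, was at 68.0, 54.3, 93.3 and 76.8 CPM, with its 2 higher values in the libraries that carried Jak2 V617F. Ifi27l2a, a small protein of the Ifi27 family (chr12:103442167-103443680), was at 59.2 CPM in control, 123 in Ikk2CA, 47.2 in Jak2V617F and 34.2 in the double mutant. It was the highest ratio of any member in Ikk2CA, 2.07 of control (2.01 to 2.13), and the lowest of any in the double mutant against Ikk2CA, 0.279 (0.271 to 0.288). Xaf1 and Ifi35 were within 1.5-fold of control in all libraries, between 0.684 and 1.08 of it.

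**Figure D3:**
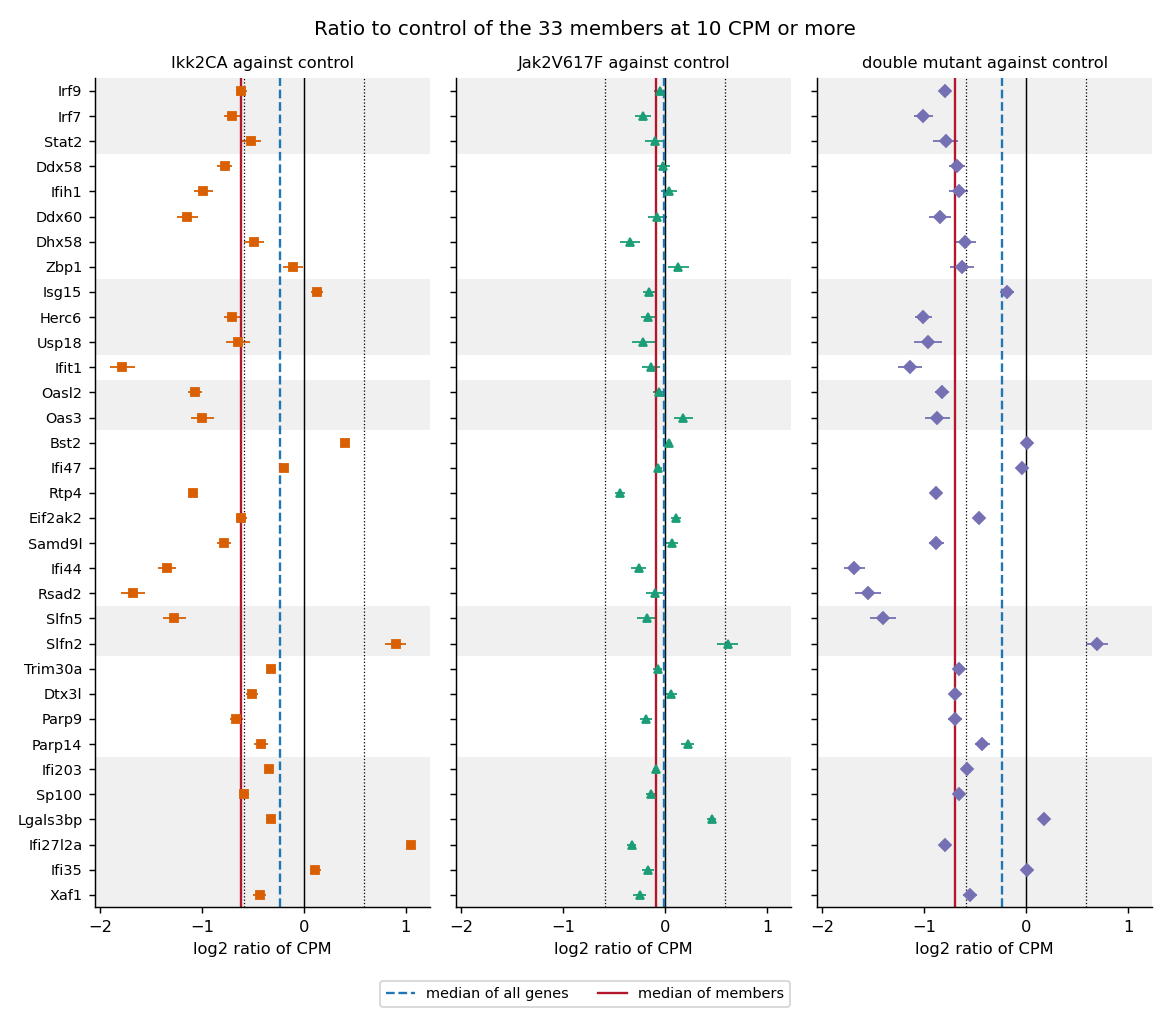
Log2 ratio of CPM to control for the 33 members at 10 CPM or more, grouped by role, with exact intervals for counting error; dotted lines mark 1.5-fold, the red line the member median and the dashed blue line the median of all 8536 genes. The member median lies left of that of all genes in Ikk2CA (-0.61 against -0.23) and in the double mutant (-0.69 against -0.24), and both lie near 0 in Jak2V617F.

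The log2 CPM of control plus that of the double mutant, less those of the single mutants (0 where the alleles act additively on the log scale), had a median of -0.05 over the 33 members, with 16 above 0, and 0.02 over all genes. It ran from -1.51 for Ifi27l2a to 0.78 for Ifit1. Rtp4 was at 0.64 and Slfn2 at -0.81. Oas1a, which was below 10 CPM, was at -1.59.

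Interferon genes themselves were almost not detected. Of 21 interferon ligand genes, 17 had 0 UMIs in all 4 libraries, among them Ifnb1 and every listed Ifna gene, where 0 UMIs allow up to 0.0152 to 0.0293 CPM by library. The other 4 (Ifnab, Ifnk, Ifnz and Ifng) summed to 18 UMIs in control, 43 in Ikk2CA, 33 in Jak2V617F and 13 in the double mutant, and 21 of the 43 were Ifng. Interferon made outside the sorted gate was not measured.

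The receptor genes were present. Ifnar1 was at 31.0 CPM in control, 27.1 in Ikk2CA, 31.8 in Jak2V617F and 22.1 in the double mutant, and Ifnar2 at 113, 112, 98.5 and 98.0 CPM. Ifngr1, the ligand-binding chain for type II interferon, was lower in all mutants, at 114, 71.9, 81.7 and 68.95 CPM, whereas its partner Ifngr2 was at 21.95, 35.4, 19.5 and 27.8 CPM, higher where Ikk2-CA was present. Il10rb, a shared chain of the type III receptor, was at 55.1, 43.3, 42.1 and 39.1 CPM, and Ifnlr1 had 31 UMIs or fewer. Of the 5 receptor genes above 10 CPM, 1 (Ifngr1) was at least 1.5-fold lower in Ikk2CA, against 16.7% of all genes. Another, Ifngr2, was at least 1.5-fold higher, against 3.96%.

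Downstream of the receptors, none of 10 kinase, STAT and IRF genes was at least 1.5-fold lower in Ikk2CA, and 1 (Irf8) was higher. In the double mutant 4 were lower (Jak2, Irf5, Irf8 and Irf2bp2). Among all genes, 16.7% were lower and 3.96% higher in Ikk2CA, and 16% were lower in the double mutant. These shares apply to the other counts in this paragraph too. Irf8, a factor of the plasmacytoid dendritic and monocyte lineages, was at 84.2 CPM in control, 229 in Ikk2CA, 59.8 in Jak2V617F and 47.3 in the double mutant. Of 8 genes of innate sensing and induction, Tbk1, the kinase that activates Irf3, was at 36.8, 23.1, 31.5 and 23.3 CPM, and 2 of the 8 (Tbk1 and Traf6) were at least 1.5-fold lower in Ikk2CA and in the double mutant. Of 15 brakes on the pathway 1, Pias1, was lower in both. Socs3, an inhibitor of Jak kinases that STATs induce, was at 6.46, 8.95, 12.1 and 5.20 CPM, highest in Jak2V617F.

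Other target lists were measured for comparison. Of 10 interferon-gamma-inducible GTPases above 10 CPM, 5 were at least 1.5-fold lower in Ikk2CA and 5 in the double mutant, with medians of -0.58 and -0.62. Tgtp2 was at 27.8 CPM in control, 12.1 in Ikk2CA, 18.4 in Jak2V617F and 16.4 in the double mutant, and Irgm1 at 51.5, 28.1, 40.4 and 27.7 CPM. Of 39 other interferon-stimulated genes 11 were lower and 3 higher in Ikk2CA, and 7 lower and 1 higher in the double mutant. The 7 were a share near the 16% of all genes. The median of these genes was -0.18 in Ikk2CA, above that of all genes (-0.23), and -0.33 in the double mutant (all genes -0.24). Ly6e, a membrane protein that blocks viral entry, was at 606, 1464, 704 and 1198 CPM, and Ifi30, a lysosomal thiol reductase, at 14.4, 54.4, 14.1 and 21.5 CPM. The shares of genes past 1.5-fold given above for each comparison apply to these counts. Of 9 NF-κB target genes 6 were higher in each Ikk2-CA library, with medians of 1.85 and 0.76, and Relb was at 6.31, 34.9, 6.46 and 28.9 CPM.

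To follow the members across cell types, each cell of at least 5000 UMIs was thinned to 5000 and placed in a gate when it held at least 3 markers of 1 cell type and more than of any other, with no member among the markers. Among the 10 leading genes of each of the 7 gates used, 4 to 6 were its own markers, such as Fgd5, Procr and Mecom for stem cells, and none was a marker of another gate. In control the summed member level was highest in the stem cell gate, at 1931 CPM (interval 1901 to 1961), above the lymphoid-primed gate at 1838 (1818 to 1859). The plasmacytoid dendritic gate, at 1832 (1724 to 1945), overlapped both. The B cell gate at 1072, the granulocyte-monocyte gate at 1052 and the megakaryocyte gate at 1023 CPM also had overlapping intervals, and the erythroid gate was lowest at 670 CPM (644 to 696). The gates differed in depth, with medians of 8716 UMIs per cell in the stem cell gate and 22709 in the erythroid gate of control.

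At matched depth the stem cell and lymphoid-primed gates were again above the granulocyte-monocyte, megakaryocyte and erythroid gates in all 4 libraries. In control cells of 10000 to 20000 UMIs the stem cell gate was at 1716 CPM, the lymphoid-primed gate at 1773, the granulocyte-monocyte gate at 1254, the megakaryocyte gate at 965 and the erythroid gate at 902. The plasmacytoid dendritic gate of Ikk2CA was at 2394 CPM there, against 1679 in control (22 cells). Abundant members such as Bst2, whose levels in this gate are given below, weigh most in that sum. Over all depths the member median of this gate was -0.94 in Ikk2CA against control (all genes -0.19). Over gated cells of all depths, more members in each library had their highest level in the stem cell gate than in any other. They numbered 22 of 33 in control, 25 in Ikk2CA, 21 in Jak2V617F and 25 in the double mutant. The share of all genes highest in that gate was not computed, and the gates differed in depth. Oasl2 in control, also over all depths, was at 64.9 CPM in the stem cell gate and 45.1 in the lymphoid-primed gate. It was at 17.5 in the granulocyte-monocyte and 7.48 in the erythroid gate. Ifit1 was at 34.2, 17.7, 6.60 and 4.39 CPM in the same gates.

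**Figure D4:**
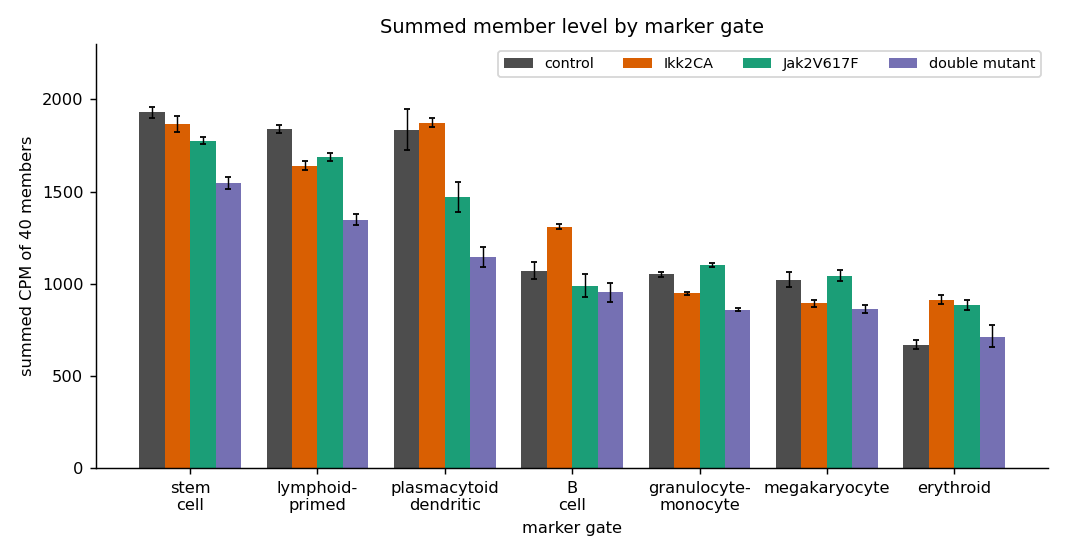
Summed CPM of the 40 members (y) in 7 marker gates (x) of the 4 libraries, with exact Poisson intervals for counting error. Stem cell, lymphoid-primed and plasmacytoid dendritic gates lie highest, and the double mutant is lowest of the 4 libraries in every gate except the erythroid one.

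Within gates the difference between Ikk2CA and control was uneven. The stem cell gate held 826 control, 352 Ikk2CA, 1564 Jak2V617F and 322 double-mutant cells, and its summed member level was 1931, 1866, 1777 and 1547 CPM. The member median of Ikk2CA to control was -0.11 there (all genes -0.15), with 1 of 33 members at least 1.5-fold lower against 8.66% of genes, and that of the double mutant -0.45 (all genes -0.17), with 9 lower against 10.6% of genes in the gate. For Ikk2CA the median was -0.32 in the lymphoid-primed gate (all genes -0.20), -0.41 in the granulocyte-monocyte gate (-0.21) and -0.27 in the megakaryocyte gate (-0.18). It lay above that of all genes in the B cell gate (0.01 against -0.16) and in the erythroid gate (0.28 against -0.14). In the plasmacytoid dendritic gate it was -0.94 (all genes -0.19), on 49 control and 584 Ikk2CA cells. The summed member level of that gate was 1832 CPM in control and 1874 in Ikk2CA, a sum in which abundant members such as Bst2 weigh most. In the double mutant the medians were below 0 in all 7 gates, from -0.07 in the erythroid gate (20 cells) to -0.88 in the plasmacytoid dendritic gate (45 cells). The all-gene medians were also below 0 in all 7, from -0.17 to -0.25, and in the erythroid gate the members lay above that of all genes (-0.18).

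In the stem cell gate Ifit1 was at 34.2 CPM in control, 17.8 in Ikk2CA, 24.5 in Jak2V617F and 17.7 in the double mutant, and Irf7 at 30.9, 36.4, 25.1 and 22.9 CPM. Isg15 was at 46.2, 61.4, 33.4 and 46.3 CPM. Slfn2 was highest in the double mutant, at 42.7 CPM against 21.3, 19.7 and 27.7. Ifit1 was thus lower in all 3 mutants, whereas Irf7 and Isg15 were highest in Ikk2CA.

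Ifi27l2a and Bst2 followed other cell types. In Ikk2CA Ifi27l2a was at 319 CPM in the B cell gate and 314 in the plasmacytoid dendritic gate, against 134 and 236 in control and against 33.4 and 33.2 in the stem cell gates of Ikk2CA and control. The B cell gate held 1272 Ikk2CA and 129 control cells, with a higher level within the gate and a higher number of such cells in Ikk2CA. Bst2 in the plasmacytoid dendritic gate was at 756 CPM in Ikk2CA, 294 in control, 348 in Jak2V617F and 269.9 in the double mutant, and in the other 6 gates the 4 libraries lay between 113 and 244 CPM. Slfn2 in the megakaryocyte gate was at 3.91 CPM in control, 3.25 in Ikk2CA, 28.4 in Jak2V617F and 18.1 in the double mutant, high in both libraries with Jak2 V617F. Zbp1 and Isg15 in the erythroid gate were at 29.98 and 67.1 CPM in Ikk2CA against 4.90 and 19.6 in control.

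Per cell, the members were a low and uneven signal. In cells thinned to 5000 UMIs the mean was 8.29 member UMIs in control, 6.95 in Ikk2CA, 7.77 in Jak2V617F and 5.94 in the double mutant. Cells with 10 or more of the 40 members detected were 14.0% in control (13.2 to 14.8), 6.79% in Ikk2CA (6.29 to 7.31), 11.3% in Jak2V617F (10.7 to 11.8) and 4.80% in the double mutant (4.23 to 5.42). Without thinning these shares were 59.1%, 63.1%, 56.0% and 78.8%, highest in the 2 deeper libraries. Thinning left out 838, 405, 1361 and 146 shallower cells. Among cells of 10000 to 20000 UMIs the thinned shares were 11.04%, 8.99%, 8.57% and 9.14%, with overlapping intervals for the 3 mutants.

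**Figure D5:**
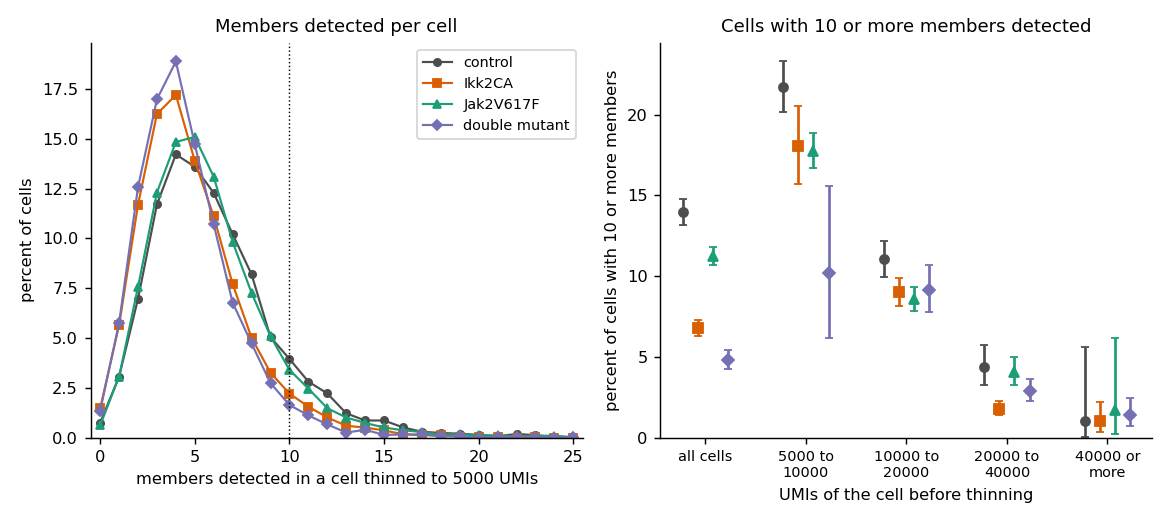
Left, percent of cells (y) by the number of members detected after thinning to 5000 UMIs (x); right, percent of cells with 10 or more members detected, over all such cells and by their UMIs before thinning, with exact binomial intervals. Over all cells the 4 libraries run from 4.80% to 14.0%, and at 10000 to 20000 UMIs from 8.57% to 11.04%.

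A small set of cells had a high member level in every library. Cells with 30 or more member UMIs after thinning numbered 93 in control, 58 in Ikk2CA, 136 in Jak2V617F and 20 in the double mutant, or 1.29%, 0.613%, 1.06% and 0.390% of cells, and the highest cell held 157. At 10000 to 20000 UMIs such cells were 0.746%, 0.764%, 0.770% and 0.902%, with overlapping intervals. A UMI of any IFIT gene was found in 10.7%, 4.97%, 10.1% and 6.15% of thinned cells (19.99%, 13.8%, 20.1% and 19.9% before thinning). No cell type in the gate is known to lack these genes, so the share that free RNA gives was not measured; by gate the share was 17.1% in stem cells and 4.96% in erythroid cells of control, and 13.6% and 1.75% in Ikk2CA, all at 5000 UMIs.

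The other members were higher in the cells that held an IFIT UMI. In all 4 libraries each of the 36 other members had a higher CPM in them than in cells without one. Before thinning such cells were shallower, with medians of 9784 against 11716 UMIs in control and 14143.5 against 18466 in Ikk2CA. In Jak2V617F these were 10181.5 against 12377, and in the double mutant 20887 against 25695. Among cells of 10000 to 20000 UMIs 36 of 36 were higher in control and Jak2V617F, and 35 in Ikk2CA and the double mutant. The share of all genes that were higher in such cells was not computed, here or within the stem cell gate. In control Rsad2 was at 71.1 against 14.2 CPM, Isg15 at 120 against 27.0 and Irf7 at 73.9 against 21.5, whereas Actb, a housekeeping gene, was at 3579 against 3698. In Ikk2CA Isg15 was at 154 CPM in such cells and 33.1 in the rest, and Rsad2 at 29.8 and 5.52 CPM. The 1% of cells with the most IFIT UMIs held 36.6%, 34.0%, 36.0% and 40.4% of them, a share that ranking by these same UMIs raises. Within the stem cell gate 36 of 36 members were higher with an IFIT UMI in control and in Jak2V617F, 30 of 36 in Ikk2CA (48 such cells) and 26 of 36 in the double mutant (41 such cells).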

How the data were processed

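The deposited values were counts: whole UMIs per gene and barcode, not normalised, in matrices that Cell Ranger 4.0.0 wrote per the file headers, while the series' design text names version 3.0.1. The submitters' processing notes name mm10 and Seurat 4.0.0. Per the labels, each library pooled 5 mice. Barcodes were kept with the design text's limits (500 to 7500 genes, under 10% mitochondrial UMIs), which left 37344 of 41674. UMIs of kept cells were summed per gene and library (102362297, 197836491, 182778171 and 142211877) and divided by the library total to give CPM, in units of 1000000 UMIs. Members and lists were chosen with earlier results of these data known. Every member could be named: full values went to members past 1.5-fold in any of 5 comparisons and to the 4 of highest CPM, and of other lists to at most 4 genes of largest ratio, with all ligands and receptors; a few more (Irgm1, Relb, Xaf1, Ifi35, and members within gates) were chosen after their values were seen.

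Intervals are exact (Poisson, conditional binomial, Clopper-Pearson) and cover counting error only. Gates used 14 marker lists, and those with at least 20 cells in each library were used. Scrublet marked 211 cells (0.565%), fewer than 0.5% in 3 of 4 libraries and therefore no usable call in those 3; as an alternative the 3468 cells of highest score were left out. In addition, 7 listed pathway symbols and the promoters of 8 members were not analysed here. Scaling factors, used as alternatives only, were from edgeR (4.0.16) and DESeq2 (1.42.0) under R 4.3.3. Other alternatives were a mean over cells, gates weighted alike, all barcodes, thinning, cells without Xist and other CPM minimums. Interval code was checked on simulated counts. Software was Python 3.11.15, scanpy 1.11.5, scipy 1.17.1, numpy 2.4.6, pandas 2.3.3 and matplotlib 3.10.9. Positions of genes were read from GENCODE on GRCm38, which is mm10.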

Additional observations from a re-analysis of the deposited data

Results flagged for a closer look

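Oas1a and Ifi27l2a differed in opposite directions with the same allele on the 2 backgrounds, by at least 1.25-fold each way. Oas1a was higher with Ikk2-CA alone (log2 ratio to control 0.79) and lower when Ikk2-CA was added to Jak2 V617F (-0.81). It was likewise higher with Jak2 V617F alone (0.59) and lower when Jak2 V617F was added to Ikk2-CA (-1.01). Ifi27l2a was higher with Ikk2-CA alone (1.05) and lower when Ikk2-CA was added to Jak2 V617F (-0.46). They stand here because both ratios passed 1.25-fold in opposite directions, with counting intervals that exclude 1. Others, such as Ifit1, Rtp4, Slfn2 and Zbp1, had ratios on opposite sides of 1 with such intervals but below that limit in at least 1 of them. The difference between backgrounds was not tested, since there was 1 library per genotype. In cells of 10000 to 20000 UMIs Oas1a was at 4.08 CPM in control, 8.14 in Ikk2CA, 6.49 in Jak2V617F and 4.35 in the double mutant, and Ifi27l2a at 59.9, 158, 51.3 and 44.8 CPM. B cell markers, summing to 255, 1215, 82.5 and 107 CPM, and plasmacytoid dendritic markers, at 312, 898, 230.2 and 203 CPM, moved with Ifi27l2a, and their part in it was not tested.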

How the results depend on the processing

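The member medians and the counts of members at least 1.5-fold lower were recomputed under 12 settings for each of 5 comparisons. Of the medians 34 moved by less than the counting error band, 24 moved further and 2 reversed, and of the counts 37 stayed within 1.5 times and 23 did not. With TMM factors the medians were -0.3705 (9 members lower) in Ikk2CA, -0.4722 (12) in the double mutant and -0.4587 (8) in the double mutant against Jak2V617F, beside 6.03%, 5.79% and 4.36% of genes lower. With median-of-ratios size factors they were -0.3785 (9), -0.4633 (12) and -0.4454 (7), beside 6.22%, 5.52% and 4.1% of genes. Both scalings set the median gene near 0 by construction, from -0.23 in Ikk2CA. As a mean over cells, Ikk2CA was at -0.5006, Jak2V617F at -0.0143 and the double mutant against Ikk2CA at -0.1919. With gates weighted alike in every library, Ikk2CA was at -0.4143 (10), Jak2V617F at -0.1799 and the double mutant against Jak2V617F at -0.4942 (10), with 2 lower against Ikk2CA; 12.6%, 10.4% and 3.02% of genes were lower where counts are given.

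The next 2 settings were added after seeing the data. In cells of 10000 to 20000 UMIs Ikk2CA was at -0.2181 (4), Jak2V617F at -0.1686 (1) and the double mutant at -0.0404 (0). Beside these, 9.57%, 1.99% and 9.82% of genes were lower. The double mutant reversed against Ikk2CA (0.1389) and against Jak2V617F (0.1227, 0 lower beside 10.3% of genes). In the stem cell gate alone Ikk2CA was at -0.1103 (1), the double mutant at -0.4525 (9) against control, -0.3121 (6) against Ikk2CA and -0.3348 (3) against Jak2V617F (8.73%, 10.7%, 4.73% and 9.22% of genes lower, in that order), and 1 member was lower in Jak2V617F. Among the other planned settings, a minimum of 50 CPM left 9 members, with Ikk2CA at -0.3240 (3), the double mutant at -0.5828 (4) and against Jak2V617F at -0.4620 (0), beside 9.2%, 8.13% and 7.78% of genes. Without a minimum the double mutant was at -0.7451 against Jak2V617F, with 2 lower against Ikk2CA, and cells without Xist also gave 2 there. Thinning to 5000 UMIs gave -0.5662 against Jak2V617F. Apart from settings whose construction shows it, the cause was not tested. No paired analysis was possible because there was 1 library per genotype, so no replicate could be left out either.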
